A study of Mus musculus with 9 samples.

Results

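The mouse circRNA array used here carries, beside its circRNA probes, 50 standard Agilent probes whose identifiers start with A_51_P. They are 50 of the 14330 non-control probes and, with 10 spots each, 500 of the 15176 non-control spots of an array. The rule that defines the members uses this identifier and no measured value. An unversioned accession paired 44 of them with a gene symbol, and the remaining 6 are given by their probe identifier.

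Liver RNA was treated with RNase R, amplified, labelled and hybridized to 9 arrays in 3 groups of 3 male C57BL/6 mice, labelled as 8 weeks old. The N group is labelled as control mice and, by the methods, had the abdomen opened without blockage of the hepatic vessels. The I/R group had 1 h of partial hepatic ischemia and then 4 h of reperfusion. In the IPO group (ischemic postconditioning), the same model was extended by 3 short cycles ahead of full reperfusion, each made up of 5 s of ischemia and then 5 s of reflow. Whole liver tissue was used, so that a lower signal from fewer cells of a type and one from less RNA per cell cannot be told apart.

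RNase R is an exonuclease that degrades linear RNA from its free end. CircRNAs have no free end and resist it, which is why the treatment is used before circRNA arrays. The A_51_P probes are catalogue probes for mouse gene transcripts and are not described in the sources used here as probes for a back-splice junction, the join that closes a circRNA. Linear and circular RNA that contain the same exon cannot be told apart at such a probe.

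The genes of the members cover many tissues and functions. By gene name, 7 act in liver metabolism, 20 in general cell functions, 4 in immune cells and 13 are known mainly from other tissues such as brain, muscle, skin or olfactory epithelium, while 6 have no symbol. Of the marker genes listed for hepatocytes, Kupffer cells, endothelial cells and other liver cell types, Apoe, a hepatocyte gene, was the only one among the members.

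The arrays of the I/R group differed from each other before any gene was compared. The share of circRNA probes flagged as well above background by the scanner software was between 85.0% and 88.9% on the N and IPO arrays, but 56.8%, 38.6% and 92.8% on I/R arrays numbered 1, 2 and 3. Local background had a median intensity of 27 and 33 on the first 2 of these, against 16 or 17 on the other 7 arrays. I/R 3 was in turn the brightest array. Before normalization, the median processed intensity of the standard probes was 67.0 on I/R 3, and 7.8 and 7.7 on I/R 1 and I/R 2. On the N and IPO arrays it lay between 19.3 and 27.6. The negative probes were also brightest on I/R 3, with a median of 5.7. Each of I/R 1, I/R 2 and IPO 3 was alone in its scan, and the other 6 arrays shared 1 scan. The file headers of I/R 1 and I/R 2, and of no other array, name a grid file in place of the design file. The part of these differences in the results below was not tested. Fold changes without I/R 3, or with it as the sole I/R array, are given beside the called changes that are described.

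The standard probes gave signal well above background on most arrays. A member was counted as well above background on an array when over 5 of its 10 spots carried the flag. Of the 50 members, 46, 45 and 44 were counted on N 1, N 2 and N 3, and 44, 43 and 43 on IPO 1, IPO 2 and IPO 3. For the I/R group the numbers were 25, 15 and 47 in the same order, and thus followed the circRNA probes of the same arrays. On all 9 arrays 15 members were well above background. On all N and IPO arrays it was 43 members. None of the 500 spots was saturated.

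The level of the members lay between that of the negative probes and that of the circRNA probes. All levels are log2 intensities after quantile normalization. The median over the members was 4.22, 4.24 and 4.25 on the 3 N arrays, 4.46, 4.33 and 4.92 on the 3 I/R arrays, and 4.33, 4.28 and 4.15 on the 3 IPO arrays. The median over the 14236 circRNA probes was between 4.72 and 4.76 on every array. Quantile normalization sets this near-equal level, since these probes make up most of the spots normalized. Before normalization their median processed intensity ran from 7.9 on I/R 2 to 57.7 on I/R 3. The median over the 15 MM9NEG negative probes was between 0.96 and 1.52 on 7 arrays, 2.10 on I/R 1 and 2.49 on I/R 2. I/R 3 was the one array whose member median exceeded its circRNA median.

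Taken within each array, the member median was 0.39 ± 0.24 (SD, n = 9) log2 units below the circRNA median, a difference of -0.39. It was lower on 8 of 9 arrays (exact sign-flip permutation test, two-sided, p = 0.00781, Benjamini-Hochberg adjusted p = 0.0313 over 8 tests). The difference was -0.51 ± 0.02 in N, -0.17 ± 0.32 in I/R and -0.49 ± 0.10 in IPO (SD, n = 3 each). The order depended on which probes were kept. Among the 15 members and 5272 circRNA probes that were well above background on all 9 arrays, the member median was higher, by 0.87 on average. These probes were kept for being bright and the choice was made after the data were seen, so that the value is a description and was not tested. Probes differ in affinity for their target, so that the comparison is one of signals and not of RNA amounts.

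Against the negative probes the member median was higher on 9 of 9 arrays, by 2.91 ± 0.53 (SD, n = 9). The exact sign-flip permutation test gave p = 0.00391, two-sided, the smallest that 9 arrays allow (adjusted p = 0.0313). The classes still overlapped probe by probe. The highest negative probe reached between 4.04 and 6.53, and between 13 and 29 of the 50 members exceeded it on an array. Up to 7 of the 15 negative probes, on I/R 3, were themselves counted as well above background. A member at a low level was thus not separated from a bright negative probe.

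No shift of the member median against the circRNA median between groups passed 0.05, a level that 3 against 3 arrays cannot reach. The shift was 0.34 from N to I/R (exact permutation test, two-sided, p = 0.1, the smallest possible), -0.32 from I/R to IPO (exact permutation p = 0.2) and 0.02 from N to IPO (exact permutation p = 0.8). Without I/R 3, the shift from N to I/R was 0.16 and that from I/R to IPO was -0.14.

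The members spanned 12.4 log2 units from the lowest to the highest mean over 9 arrays. Their order at the top differed between arrays, since Ppara was above H2-Q7 on the I/R arrays and below it on the others. The same 7 probes were among the 10 highest on every array. Genes of liver metabolism held 4 of these 10 places by mean level.

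Apoe encodes apolipoprotein E, a lipoprotein component made in large amounts by hepatocytes. Its signal was 12.90, 12.91 and 13.87 on the N arrays, 13.86, 13.73 and 12.07 on the I/R arrays and 13.26, 13.48 and 13.51 on the IPO arrays. It was the highest member on 9 of 9 arrays, and its groups overlapped.

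H2-Q7, an MHC class I gene, came next by mean level. It measured 10.75, 10.78 and 11.09 in N, 10.44, 10.20 and 9.34 in I/R and 10.45, 11.55 and 11.08 in IPO. All 3 I/R values were below all N and IPO values, although I/R 1 and IPO 1 almost met. The MHC class I genes of the mouse are close copies of each other, so that the source of this signal among them is uncertain.

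Pex11a encodes a membrane protein of dividing peroxisomes. It measured 9.02, 8.93 and 8.87 in N, 9.12, 9.17 and 9.65 in I/R and 8.71, 8.73 and 8.62 in IPO. The 3 groups did not overlap, but the steps between them were small, with a log2 fold change of 0.37 (limma adjusted p = 0.442) from N to I/R and of -0.63 (limma adjusted p = 0.183) from I/R to IPO. Neither passed the thresholds given below. Against the mean of N, I/R 1, I/R 2 and I/R 3 were higher by 0.18, 0.23 and 0.70, so that I/R 3 had the largest step.

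Actb, which encodes cytoplasmic beta-actin and has near-identical family members, measured 7.82, 7.30 and 7.57 in N, 8.41, 8.08 and 7.46 in I/R and 7.96, 7.93 and 8.22 in IPO. I/R overlapped both other groups. A_51_P191463, which has no symbol here, had the narrowest range of all members, 0.48 log2 units over the 9 arrays, from 8.26 on N 1 to 8.73 on I/R 2.

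Genes not known from hepatocytes were also among the 10 highest. Olfr166, an odorant receptor gene of a large family of similar sequences, lay between 7.08 and 7.19 in N, at 7.09, 7.67 and 8.24 in I/R and between 7.24 and 7.73 in IPO. Lhx1, a homeobox transcription factor gene of the embryonic kidney and nervous system, lay between 6.74 and 6.85 in N, at 6.06, 6.42 and 8.14 in I/R and between 6.78 and 7.31 in IPO. In both, I/R 3 gave the highest value of the 9 arrays. Whether these signals came from the named transcripts was not tested.

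At the lower end, Cav2 (caveolin 2, a membrane protein of caveolae), Kcnn2 (a calcium-activated potassium channel) and Bambi (a decoy receptor for TGF-beta signals) were well above background on none of the 9 arrays. A_51_P213099 was so on 1 array and Tyr, the enzyme of melanin synthesis, on 2. These 5 members were not tested further. The signal of Cav2 was between 0.24 and 0.38 on 7 arrays but 2.36 on I/R 1 and 3.02 on I/R 2, where it was likewise not well above background. Kcnn2 and Bambi had the same form, with 2.26 and 2.05 for Kcnn2 and 2.83 and 2.32 for Bambi on I/R 1 and I/R 2, and at most 0.99 and 1.12 elsewhere. On these arrays the median of the negative probes was also at its highest, so that these values carry no order.

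Mbp, a protein of the myelin sheath, was well above background on 2 N arrays, 1 I/R array and no IPO array, with levels of 2.15 ± 0.64, 1.85 ± 0.17 and 1.36 ± 0.54 (SD, n = 3 each). A_51_P213099 reached 2.77 on I/R 2 and lay between 0.91 and 1.89 on the other arrays. Tyr measured 2.30, 1.43 and 1.08 in N, 2.68, 2.74 and 3.21 in I/R and 1.35, 1.40 and 0.95 in IPO. It was well above background on 1 N array, 1 I/R array and no IPO array. For Tyr, Mbp and A_51_P213099 no fold is given.

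The spots of a probe give the technical error within an array. The median SD over the 10 spots of a member was between 0.11 and 0.22 log2 units on 7 arrays, 0.33 on I/R 1 and 0.67 on I/R 2. Before quantile normalization these 2 arrays had 0.25 and 0.17. The 15 brightest members had a median spot SD between 0.09 and 0.15 on every array, I/R 1 and I/R 2 included. The widest spot spread (median SD over the arrays) was found for Mbp (0.54), Carhsp1, an RNA-binding protein gene (0.53), and A_51_P213099 (0.52), all of low signal.

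The spread between arrays was set against the spread between spots. The SD between the 3 arrays of a group exceeded the standard error of the mean of the 10 spots for 47 of 50 members in N, 49 in I/R and 49 in IPO. It exceeded the SD of single spots for 27, 42 and 28 members. The median SD between arrays was 0.24 in N, 0.77 in I/R and 0.24 in IPO, close to the values of the circRNA probes (0.26, 0.76 and 0.31).

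I/R vs N asks how the members differed after ischemia and reperfusion. Of the 45 members tested, 4 were higher and 3 lower at the thresholds of the methods, which ask for a 2.0-fold change and for p below 0.05 before adjustment (limma). These are 8.89% and 6.67% of the members, where 7.76% and 11.7% of all 12892 probes tested were called. At a Benjamini-Hochberg adjusted p below 0.05, 1 member was higher, against 2.2% of all probes, and 0 were lower, against 3.73%. By unadjusted p alone, 9 members passed (20.0%, with 25.2% of all probes). The members' median log2 fold change was 0.10 beside 0.0050 over all probes, and 25 members had a positive and 20 a negative value. The share called higher was thus near that of the whole array, and the share called lower was below it, on 3 probes.

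Of the 4 members called higher, 3 are described here, and all 3 were led by I/R 1 and I/R 2. Acaa2 encodes a thiolase of mitochondrial fatty acid oxidation. It measured 6.76, 6.50 and 6.81 in N, 8.77, 8.00 and 6.93 in I/R and 6.42, 6.74 and 6.61 in IPO. I/R 3 lay just above the highest N array. The log2 fold change was 1.21 (SE 0.43, limma adjusted p = 0.119), with 0.24 from I/R 3 as the sole array of its group and 1.68 without it. With normexp background correction, one of the alternatives, it was 0.91 and no longer called.

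Gsta4 encodes a glutathione transferase that detoxifies products of lipid peroxidation. It measured 3.89, 3.56 and 3.65 in N, 5.53, 5.21 and 4.02 in I/R and 3.21, 3.86 and 3.66 in IPO. I/R did not overlap N or IPO, but on I/R 2 Gsta4 was not well above background (3 of 10 spots). The log2 fold change was 1.22 (SE 0.41, limma adjusted p = 0.103), with 0.32 from I/R 3 alone and 1.67 without it. With normexp it was 0.39 and with the raw signal 0.60, and the call was lost. A_51_P237746 measured 3.69, 4.36 and 3.72 in N and 5.94, 6.03 and 4.25 in I/R, with I/R 3 inside the range of N. Its log2 fold change was 1.48 (SE 0.48, limma adjusted p = 0.0893), with 0.32 from I/R 3 alone and 2.06 without it. With normexp it was 0.54 and with the raw signal 0.82, and the call was lost.

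All 3 members called lower were low only on the arrays where they were not measurable. Tm9sf1, which encodes a transmembrane protein of the TM9 superfamily, was at 5.35, 5.37 and 5.86 in N, 2.17, 2.02 and 6.16 in I/R and 6.75, 5.61 and 6.02 in IPO. A_51_P425205 was at 3.59, 3.61 and 4.08 in N, 1.58, 1.67 and 3.94 in I/R and 3.86, 3.83 and 3.99 in IPO. Hspb7, a small heat shock protein gene of heart and muscle, was at 4.12, 4.46 and 3.88 in N, 2.77, 2.05 and 4.00 in I/R and 4.27, 3.70 and 3.66 in IPO.

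On I/R 1 and I/R 2 none of these 3 probes was well above background, where the lowest member spot with that flag had a level of 4.27 and 5.33, and the values there have no measured size. On I/R 3 they were within or above the range of the N arrays. The log2 fold changes were -2.08, -1.37 and -1.22 (limma adjusted p = 0.198, 0.165 and 0.144), and with I/R 3 as the sole array of its group 0.63, 0.18 and -0.16. Without I/R 3 they were -3.42, -2.13 and -1.75. With normexp they were -0.43, -0.16 and -0.21, and none was called.

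The I/R arrays disagreed for many members. Against the mean of N, 23, 20 and 34 of the 45 tested members were higher on I/R arrays numbered 1, 2 and 3. The direction was the same on I/R 1 and I/R 2 for 38 members, on I/R 1 and I/R 3 for 18 and on I/R 2 and I/R 3 for 21. For 17 members the first 2 arrays were lower and I/R 3 higher, and for 5 the reverse was found. All 3 I/R arrays were higher than the mean of N for 13 members and lower for 3.

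The counts differed with the I/R arrays used. Without I/R 3, 8 of 44 members tested were called higher in I/R vs N (18.2%, with 14% of all probes), 10 lower (22.7%, with 19.4%), and 19 passed the adjusted threshold (43.2%, with 34.8%). The counts were thus larger over the whole array as well. With I/R 3 alone, 11 of 45 were called higher (24.4%, with 16.3%) and 2 lower (4.44%, with 16.6%), and 11 passed the adjusted threshold (24.4%, with 24.1%). In that fit the I/R group is 1 array, and its spread is taken from the other groups. The scan as a block rests on the same I/R array, since I/R 1 and I/R 2 are each alone in a scan, and is no separate check. It gave 11 called higher (24.4%, with 16.9% of all probes), 2 lower (4.44%, with 16.4%) and 13 past the adjusted threshold (28.9%, with 25.6%). Groups that did not overlap were found for 10 members higher in I/R (22.2% of the members, 13.8% of all probes) and for 1 member lower, H2-Q7 (2.22% and 12.9%). Which members stood apart on this measure was read after their values were seen. Among the 10 were Pex11a, Acaa2, Gpi1, Prdx2, Hyal3, Gsdmd, Il2, Gsta4 and E2f1. Of the 10, 6 were not well above background on I/R 2, namely Prdx2, Hyal3, Gsdmd, Il2, Gsta4 and E2f1, and Il2 was not on I/R 1 either, so that their values there have no measured size.

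IPO vs I/R asks how the members differed with postconditioning. It shares the I/R arrays with I/R vs N, so that a value peculiar to these arrays enters both comparisons with opposite sign. Called higher in IPO were 4 of the 45 members (8.89%, with 12.4% of all probes) and called lower were 6 (13.3%, with 8.94%). At the adjusted threshold 0 were higher (4.91%) and 2 lower (3.06%). By unadjusted p alone 16 members passed (35.6%, with 27.3% of all probes). The median log2 fold change of the members was -0.09, beside -0.01 over all probes.

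Of the 2 members past the adjusted threshold, 1 is described here. Gpi1, which encodes glucose phosphate isomerase of glycolysis, was not among the 5 largest decreases and was taken up after its values were seen. It measured 6.44, 5.98 and 6.43 in N, 7.19, 6.62 and 6.86 in I/R and 5.86, 5.58 and 5.49 in IPO.

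The 3 groups of Gpi1 did not overlap. The log2 fold change in IPO vs I/R was -1.25 (SE 0.30, limma adjusted p = 0.0357) and was -1.22 with I/R 3 as the sole array of its group and -1.25 without it. With normexp background correction it was -0.72 and with the raw signal -0.96. Both were short of a 2.0-fold change, so that the call by fold and unadjusted p was lost. The adjusted threshold asks for no fold, and with normexp the limma adjusted p was 0.00971. In I/R vs N it was 0.61 (limma adjusted p = 0.246). Its adjusted p in IPO vs I/R reached 0.140 among 23 alternatives, and 11 of them kept it below 0.05.

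Ppara encodes the nuclear receptor that drives the genes of fatty acid oxidation. It measured 9.45, 9.30 and 10.59 in N, 12.00, 11.56 and 9.45 in I/R and 8.97, 9.21 and 9.46 in IPO. I/R 1 and I/R 2 were above every other array, and I/R 3 lay among the N and IPO arrays. The log2 fold change in IPO vs I/R was -1.79 (SE 0.63, limma adjusted p = 0.103), with -0.24 from I/R 3 alone and -2.55 without it.

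Further decreases belonged to members already described, among them A_51_P237746 (-1.43), Gsta4 (-1.34) and Acaa2 (-1.31) on the log2 scale, with limma adjusted p of 0.0909, 0.0736 and 0.0900. IPO values of A_51_P237746 were 4.17, 3.87 and 3.89, all below those of I/R. With I/R 3 as the sole array of its group these changes were -0.27, -0.44 and -0.34, and without it -2.01, -1.79 and -1.78. With normexp they were -0.54, -0.42 and -0.97, and none was called.

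Higher in IPO were Tm9sf1 (log2 fold change 2.67), A_51_P425205 (1.50), Duox1 (1.32) and H2-Q7 (1.03), with limma adjusted p of 0.102, 0.123, 0.180 and 0.129. Duox1, an NADPH oxidase gene of thyroid and airway epithelium, measured 6.66, 6.87 and 6.68 in N, 4.44, 5.16 and 7.06 in I/R and 7.37, 6.78 and 6.48 in IPO. Like Tm9sf1 and A_51_P425205 it was not well above background on I/R 1 and I/R 2. With I/R 3 as the sole array of its group these 3 changes were -0.19 for Duox1, -0.03 for Tm9sf1 and -0.04 for A_51_P425205. Without I/R 3 they were 2.06, 4.01 and 2.26. With normexp they were 0.68, 0.73 and 0.19, and none was called.

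H2-Q7 differed from these. It was well above background on all 9 arrays, and I/R 3 was the lowest of them. The log2 fold change in IPO vs I/R was 1.68 with I/R 3 alone and 0.70 without it. With scaling by the 75th percentile in place of quantile normalization it was 0.52 and no longer called, and the call was lost in 8 of 23 alternatives.

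The counts again differed with the I/R arrays used. Without I/R 3, 11 of 44 members were called higher (25%, with 20% of all probes), 8 lower (18.2%, with 15.2%), and 20 passed the adjusted threshold (45.5%, with 36.8%). With I/R 3 alone, again an arm of 1 array, 3 of 45 were called higher (6.67%, with 17.3%) and 12 lower (26.7%, with 17.7%), and 14 passed the adjusted threshold (31.1%, with 27.9%). The scan as a block, which keeps the same I/R array, gave 2 called higher (4.44%, with 15.3%), 9 lower (20%, with 15.3%) and 5 past the adjusted threshold (11.1%, with 15.6%). That block also takes IPO 3, alone in its scan, out of the comparison. Groups did not overlap for 2 members higher in IPO (13.7% of all probes), H2-Q7 and A_51_P284125, and for 10 lower (14.1%). A_51_P284125 and 5 of these 10 were not well above background on I/R 2.

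IPO vs N asks how the postconditioned livers differed from control livers. No member was called higher or lower, where 0.427% and 0.0853% of all probes were. At the adjusted threshold limma called 0 members and 0 probes. Of the 45 members, 0 had an unadjusted p below 0.05, beside 0.853% of all probes. This fit takes a shared spread per probe from all 9 arrays, those of I/R included. The median SD of members between arrays was 0.77 in I/R and 0.24 in both N and IPO. IPO vs N was thus judged against a spread widened by I/R. The lack of calls does not show that these groups were alike. Tests were also run on the N and IPO arrays alone, and without limma's moderation of the variance. They differ from the main fit in both respects. They gave 4 members an unadjusted p below 0.05 (8.89%, with 5% of all probes). After adjustment they called 0 members and 0 probes. The median log2 fold change of the members was -0.00078, beside -0.01 over all probes. The median of its absolute value was 0.15, against 0.54 between I/R and N and 0.57 between IPO and I/R. Over all probes these were 0.21, 0.57 and 0.61.

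Groups without overlap were found for 3 members higher (6.67%, with 5.12% of all probes) and 3 lower (6.67%, with 5.04%), shares near those of the whole array. Actb, Olfr166 and Spats1, a testis gene, were higher on all 3 IPO arrays than on all 3 N arrays, with log2 fold changes of 0.47, 0.27 and 0.60. Pex11a, Gpi1 and Cpt1a, the enzyme that admits fatty acids to mitochondria, were lower, with -0.26, -0.64 and -0.33. All 6 were chosen after their values were seen, and each had an adjusted p of 1.0 by limma.

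By role, the 7 genes of liver metabolism held 2 of the 4 members called higher in I/R vs N and 3 of the 6 called lower in IPO vs I/R, where 7.76% and 8.94% of all probes were called. These roles were assigned by gene name, and no difference between roles was tested. The calls were those of Acaa2, Gsta4 and Ppara, and with I/R 3 as the sole array of its group none of their changes reached 2.0-fold, as given above. The median log2 fold change of the 7 genes was 0.37 in the first comparison, -0.63 in the second and -0.12 in IPO vs N. Apoe, Pex11a, Gamt and Cpt1a of this role were called in neither. Gamt, an enzyme of creatine synthesis, measured 6.87, 7.23 and 6.85 in N, 6.16, 6.31 and 7.34 in I/R and 7.39, 6.67 and 6.93 in IPO, and Cpt1a lay between 5.80 and 7.16 over the 9 arrays.

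The 20 genes of general cell functions, 18 of them tested, had 0 members called higher and 1 called lower in I/R vs N (7.76% and 11.7% of all probes), and 1 each way in IPO vs I/R (12.4% and 8.94%). Their mean levels ranged from 0.84 for Cav2 to 7.86 for Actb. The 4 immune genes had no call against N, and H2-Q7 was their 1 call in IPO vs I/R. Il2, a cytokine of activated T cells, lay between 3.60 and 5.20, and Gsdmd, the pore-forming protein of pyroptosis, between 4.25 and 5.03.

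The 13 genes known from other tissues, 11 of them tested, had 1 call each way against N (7.76% and 11.7% of all probes), Hspb7 among them. In IPO vs I/R they had 1 each way (12.4% and 8.94%), Duox1 among them. Each role holds few genes, and its counts were not tested against the shares of all probes. Their median level over the 9 arrays was 4.36, beside 3.49 for the genes of general cell functions and 7.06 for those of liver metabolism. These medians are over different probes and compare signals, not RNA amounts.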

How the data were processed

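Mouse liver RNA treated with RNase R was measured on 9 1-colour (Cy3) circRNA arrays, 3 per group. Per array, the authors deposited what Agilent Feature Extraction 11.0.1.1 (named in the submitters' processing notes) wrote: the processed intensity after background correction, the raw and local background intensity, and spot flags. The depositors' own quantile-normalized values were not used. The number of arrays limits the precision, and p-values measure the spread between these 3 samples per group.

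Values were turned into log2 (R 4.3.3). Outlier spots were set to missing (10 to 34 of the 500 member spots per array), the 15176 non-control spots were quantile normalized with limma 3.58.1, and the spots of a probe were averaged. Quantile normalization stretches the dim probes of I/R 1 and I/R 2 over the range of the other arrays. The 12892 probes above background by the software's flag on 3 or more of 9 arrays were tested, with the 3 groups in 1 fit (lmFit, eBayes). Calls needed a 2.0-fold change with p below 0.05 before adjustment, as in the methods, or a Benjamini-Hochberg adjusted p below 0.05 over all probes. The procedure was tested on simulated data. Class levels were compared within arrays by exact permutation tests.

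Symbols came from a RefSeq table of GRCm38.p6, matched through unversioned accessions for 44 of 50 members. The probe sequences were not used here.

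Named with values were the 10 highest and 5 lowest members by mean level, the 5 largest increases and decreases called in either comparison with I/R, any called in IPO vs N, the 3 with the widest spot spread, and those that a whole group left without a flag above background. The values of 1 member that meets this rule are not reported here, and counts include it. Role groups follow gene names. This set of probes, and the gene lists, were taken up with earlier results of these data known, although the rule for the probes uses their identifier alone. Alternatives covered scaling, background correction (normexp with an offset of 50, or none, on the median raw intensity), outlier spots, filters, tests, array weights, blocks and each array left out.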

Additional observations from a re-analysis of the deposited data

How the results depend on the processing

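Signal over background limits the values on I/R 2 and I/R 1, where 15 and 25 of 50 members were well above background, against 47 on I/R 3. Each number of members below is followed by the percent of all probes called in the same way. In I/R vs N (4 higher, 3 lower, 1 past the adjusted threshold), scaling by the 75th percentile gave 1 lower (11.6%). Normexp gave 1 higher (1.12%) and 0 lower (3.44%), and the raw signal 2 (1.96%) and 0 (5.21%). No filter gave 8 higher (10.8%). A filter on all 9 arrays, which left 15 members, gave 3 higher (10.3%), 0 lower (7.46%) and a median of 0.37. Student's test gave 1 higher (4.83%), 0 lower (6.25%) and 0 adjusted (0.0621%), and the fit on these groups alone 0 lower (9.82%) and 0 adjusted (0.535%). Array weights, where I/R 3 had the lowest weight (0.113), gave 7 (13.4%), 9 (18.9%) and 14 (26.9%). The scan as a block, which leaves I/R 3 as the 1 I/R array that counts, gave 11 higher (16.9%) and 13 adjusted (25.6%). In IPO vs I/R (4 higher, 6 lower, 2 adjusted), normexp gave 0 higher (3.5%) and 2 lower (1.33%), the raw signal 2 (5.62%) and 3 (2.4%), and no filter 10 lower (11.8%). The filter on all 9 arrays, again with 15 members, gave 1 higher (8.71%) and 5 lower (12.7%). Student's test gave 0 higher (7.27%), 2 lower (5.52%) and 0 adjusted (0%), the groups alone 2 higher (10.9%) and 0 adjusted (1.8%), array weights 11 higher (19.2%) and 13 adjusted (25.1%), and the scan block 2 higher (15.3%) and 5 adjusted (15.6%). In IPO vs N, scaling by the 75th percentile gave 1 lower (0.295%) and a median of -0.085, and array weights 1 lower (0.915%).

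Chosen after the data were examined, I/R 3 as the sole array of its group gave 11 higher (16.3%), 11 adjusted (24.1%) and a median of 0.45 in I/R vs N, and 12 lower (17.7%), 14 adjusted (27.9%) and a median of -0.43 in IPO vs I/R. The spread then comes from the other groups, and the lone array is assumed to vary like them. The signs of Tm9sf1 (0.63 and -0.035), A_51_P425205 (0.18 and -0.042) and Duox1 (-0.19 in IPO vs I/R) were then opposite to those with all arrays, and the scan block, which sets the same array against N, gave 0.63 for Tm9sf1 and 0.18 for A_51_P425205 in I/R vs N, and -0.092 for A_51_P425205 in IPO vs I/R. The member minus circRNA level, also chosen late, was 0.87 when both classes were filtered on all 9 arrays, and 2.85 when the members alone were. Both keep probes for being bright, and the second compares filtered members with unfiltered circRNA probes.

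Leaving out 1 array at a time gave 3 to 8 members called higher (6.34% to 14% of all probes), 0 to 10 lower (9.33% to 19.4%) and 0 to 19 adjusted (0.54% to 34.8%) in I/R vs N. IPO vs I/R gave 1 to 11 (9.68% to 20%), 4 to 8 (7.06% to 15.2%) and 0 to 20 (1.55% to 36.8%), and IPO vs N gave 0 (0.266% to 0.782%), 0 to 1 (0.0311% to 1.13%) and 0 (0%). Each highest count of the first 2 comparisons came without I/R 3. In the order of these comparisons, the medians ranged over 0.10 to 0.36, -0.27 to 0.0083 and -0.045 to 0.053, the member minus circRNA level from -0.46 to -0.36, the level above the negative probes from 2.80 to 3.28, the shifts against the circRNA probes over 0.16 to 0.46, -0.44 to -0.14 and -0.024 to 0.077 (negative without IPO 1), and the spot SD from 0.17 to 0.19. The cause of these changes was not tested.

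Replicate numbers did not pair the samples. The group mean of each probe was first subtracted, and the remaining deviations of same-numbered arrays were correlated across groups. This correlation ranged from -0.47 to 0.18 and was above 0.1 in 2 of 9 pairs. With the replicate number as a block 0 members passed the adjusted threshold for either comparison with I/R, where 1.23% and 2.73% of all probes did, while unadjusted counts were 4 higher (7.35%) and 3 lower (11%) against N, then 3 higher (11.9%) and 6 lower (8.48%) for IPO.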
